A study of Mus musculus with 24 samples.

Results

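The block described here is a set of 49 genes on mouse chromosome 12, between Cep128 and Vrk1 (GRCm38, from 90998492 at the start of Cep128 to 106077426 at the end of Vrk1), out of 55401 entries in the count table. The genes were chosen by their position and by their counts, which were higher in Setd3 knock-out than in wild-type cells, so that difference is given as a description and not as a test. What was tested is whether each gene kept the same difference at every day. The low-count filter kept 45 of the 49 genes, among 17144 tested genes in all. The interval also holds 52 protein-coding genes that are not members. Of these, 22 passed the filter, and their median differences, given under other observations, were below those of the members.

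RNA was sequenced from Setd3 knock-out CJ9 mouse embryonic stem cells at days 0, 2, 3 and 4 of endoderm differentiation, and from wild-type CJ9 cells at the same days, with 3 libraries in each of the 8 groups and 24 libraries in all. Setd3 encodes a histidine methyltransferase that modifies actin, and the study asked what its loss does to endoderm formation. In both genotypes the day 0 cells were grown with LIF, a cytokine that maintains the stem cell state, on mitotically inactivated mouse embryonic fibroblasts. The cells were then separated from this feeder layer, kept in serum-free differentiation medium, and given Activin A from day 2. The knock-out is 1 line made with CRISPR-Cas9, so a property of that line and the loss of Setd3 cannot be told apart. The labels do not say whether replicates were separate cultures, so p-values measure only the spread between these libraries, which may be technical.

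Genes that lie side by side on a chromosome need not share a function, and the members of this block are diverse. They include poly(A) polymerase, which adds the tail of messenger RNA, the nuclease Dicer1, which cuts microRNA precursors, an ATPase of the proteasome, and the adaptor of the SEL1L-HRD1 system, which removes misfolded proteins from the endoplasmic reticulum. In cells with an extra or missing stretch of chromosome, RNA levels of most genes there move with the number of copies, while genes under strong regulation can depart from it. DNA was not analysed here, so a change in copy number was not tested.

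The promoters of 4 members are shown, from 250 bases before to 50 bases after the start of the gene in RefSeq (GRCm38.p6), with each CG pair in capitals. Psmc1 and Papola kept a nearly constant difference between genotypes, while Ppp4r4 and Chga were among those that departed from it. Psmc1 lies at chr12:100109952-100110251, Papola at chr12:105784447-105784746, Ppp4r4 at chr12:103532315-103532614 and Chga at chr12:102554691-102554990, all on the plus strand.
Psmc1: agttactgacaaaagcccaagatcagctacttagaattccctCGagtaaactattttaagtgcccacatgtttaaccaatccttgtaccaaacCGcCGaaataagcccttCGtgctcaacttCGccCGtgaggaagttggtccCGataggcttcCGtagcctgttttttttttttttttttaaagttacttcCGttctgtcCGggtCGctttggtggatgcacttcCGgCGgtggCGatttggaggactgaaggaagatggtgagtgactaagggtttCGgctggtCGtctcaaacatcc
Papola: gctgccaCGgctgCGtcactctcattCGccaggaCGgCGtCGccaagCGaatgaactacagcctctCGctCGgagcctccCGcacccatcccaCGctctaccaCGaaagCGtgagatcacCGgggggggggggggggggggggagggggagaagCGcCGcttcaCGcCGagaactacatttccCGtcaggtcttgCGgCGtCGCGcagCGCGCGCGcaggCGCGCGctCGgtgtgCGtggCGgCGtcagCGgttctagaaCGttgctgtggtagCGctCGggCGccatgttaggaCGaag
Ppp4r4: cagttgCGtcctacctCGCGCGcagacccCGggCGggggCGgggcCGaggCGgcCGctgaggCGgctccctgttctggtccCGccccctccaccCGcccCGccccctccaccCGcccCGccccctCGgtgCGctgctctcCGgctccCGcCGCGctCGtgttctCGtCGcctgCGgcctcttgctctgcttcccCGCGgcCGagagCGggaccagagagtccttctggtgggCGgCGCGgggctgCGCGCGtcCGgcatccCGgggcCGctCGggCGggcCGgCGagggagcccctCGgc
Chga: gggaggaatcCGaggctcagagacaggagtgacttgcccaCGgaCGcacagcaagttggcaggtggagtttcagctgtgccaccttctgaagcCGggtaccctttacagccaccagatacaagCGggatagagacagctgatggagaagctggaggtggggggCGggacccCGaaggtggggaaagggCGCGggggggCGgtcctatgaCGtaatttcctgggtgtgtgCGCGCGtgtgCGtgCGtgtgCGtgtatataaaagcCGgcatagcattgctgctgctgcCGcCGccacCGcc

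The Psmc1 window held 16 CG pairs, the Papola window 40, the Ppp4r4 window 44 and the Chga window 21. A RefSeq promoter was found for 47 members, and for 42 of these it lay within 1000 bases of the gene start used for the coordinates. These 42 windows had a median of 24 CG pairs (range 3 to 55), against 7 over all 32851 RefSeq promoters. The letters TATAAA, searched on both strands, were present in 2 of the 42 (4.76%), those of Chga, at base 256 of the printed window, and Gpr65, against 13.6% of all promoters. The median was 21.5 CG pairs in the 20 members whose difference between genotypes changed with the day, and 25.5 in 18 members for which no such change was called.

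The targeted gene was measured first. Setd3 had 47.7, 48.8 and 42.3 CPM (counts scaled to a common library size) in knock-out libraries at day 0, against 120, 127 and 119 CPM in wild-type libraries. At day 4 it had 29.6, 29.1 and 31.1 CPM in knock-out libraries, against 127, 124 and 120 CPM in wild-type libraries. No knock-out library reached a wild-type one at any day, and the log2 fold change of knock-out over wild-type was -1.40 ± 0.06 at day 0 and -2.05 ± 0.06 at day 4 (± standard error, edgeR quasi-likelihood test, Benjamini-Hochberg adjusted p = 1.84e-14 and 6.22e-18). Setd3 itself lies beyond the distal end of the block, at 108106431 to 108179314. Its neighbour Ccnk was also lower in knock-out cells, with -0.79 ± 0.10 at day 0 and -0.80 ± 0.10 at day 4. So were most measured genes farther along the chromosome. How much of the fall in Setd3 is shared with its neighbours was not tested.

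Library totals ran from 18531390 to 24244958 counts, with 20020 to 22665 genes detected. Summed over 14 fibroblast markers, the feeder signal at day 0 was 1097 to 2903 CPM in knock-out libraries and 1084 to 1988 CPM in wild-type libraries. By day 4 it was 55.69 to 67.75 CPM in knock-out and 47.36 to 53.01 CPM in wild-type libraries. Summed pluripotency markers were 1004 to 1015 CPM in knock-out and 1389 to 1612 CPM in wild-type libraries at day 3, whereas at day 4 they were 1082 to 1171 CPM in knock-out and 676 to 852 CPM in wild-type libraries. At day 2 these sums were 793.4 to 850.6 CPM in knock-out and 488.2 to 544.4 CPM in wild-type libraries. Of 7 markers tested singly, 5 were called higher and 0 lower in knock-out cells at day 2 (edgeR, adjusted p under 0.05). At day 3 there were 3 higher and 2 lower, and at day 4 5 higher and 2 lower. Calls over all tested genes were 32.0, 41.2 and 54.0% at those days. Sums at days 3 and 4 thus join markers that moved in opposite directions. Sox2, one of these markers, was listed at 0 in every library, and lies within the annotated transcript Sox2ot. Summed mesendoderm and endoderm markers were 41 to 49.9 CPM in knock-out and 714.3 to 1235 CPM in wild-type libraries at day 3, and 166.5 to 320.6 CPM in knock-out and 1343 to 1671 CPM in wild-type libraries at day 4. In such bulk RNA, fewer cells of a type and less RNA per cell cannot be told apart.

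Across the listed members, which are not all genes of the interval, RNA was between 2 and 3 times as abundant in knock-out as in wild-type cells. Summed over the members, it came to 6981 ± 310 CPM in knock-out and 2838 ± 31.1 CPM in wild-type cells at day 0 (SD, n = 3 each), a ratio of 2.46. At day 2 the sums were 7079 ± 122 CPM in knock-out and 2769 ± 27.5 CPM in wild-type cells, a ratio of 2.56. At day 3 they were 8041 ± 56 CPM in knock-out and 3308 ± 63.5 CPM in wild-type cells, a ratio of 2.43. At day 4 the ratio was 2.7, from 8002 ± 118 CPM in knock-out and 2962 ± 44.2 CPM in wild-type cells.

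Gene by gene, the median log2 fold change of the 45 tested members was 1.17, 1.29, 1.21 and 1.38 at days 0, 2, 3 and 4, while that of all tested genes lay between -0.01 and 0.01. In the 26 members with a mean of at least 50 CPM, which are the most closely measured, the median fold was 2.43, 2.67, 2.45 and 2.79 at the same days. Of the 45 members, 38 were above 0 at all 4 days, 32 were past 1.5-fold and 24 were past 2-fold at all 4 days. Members past an adjusted p of 0.05 numbered 37, 40, 38 and 43 at days 0, 2, 3 and 4, beside 21.1, 32.0, 41.2 and 54.0% of all tested genes. The members were listed from these contrasts, so nothing is read from those counts.

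**Figure D1:**
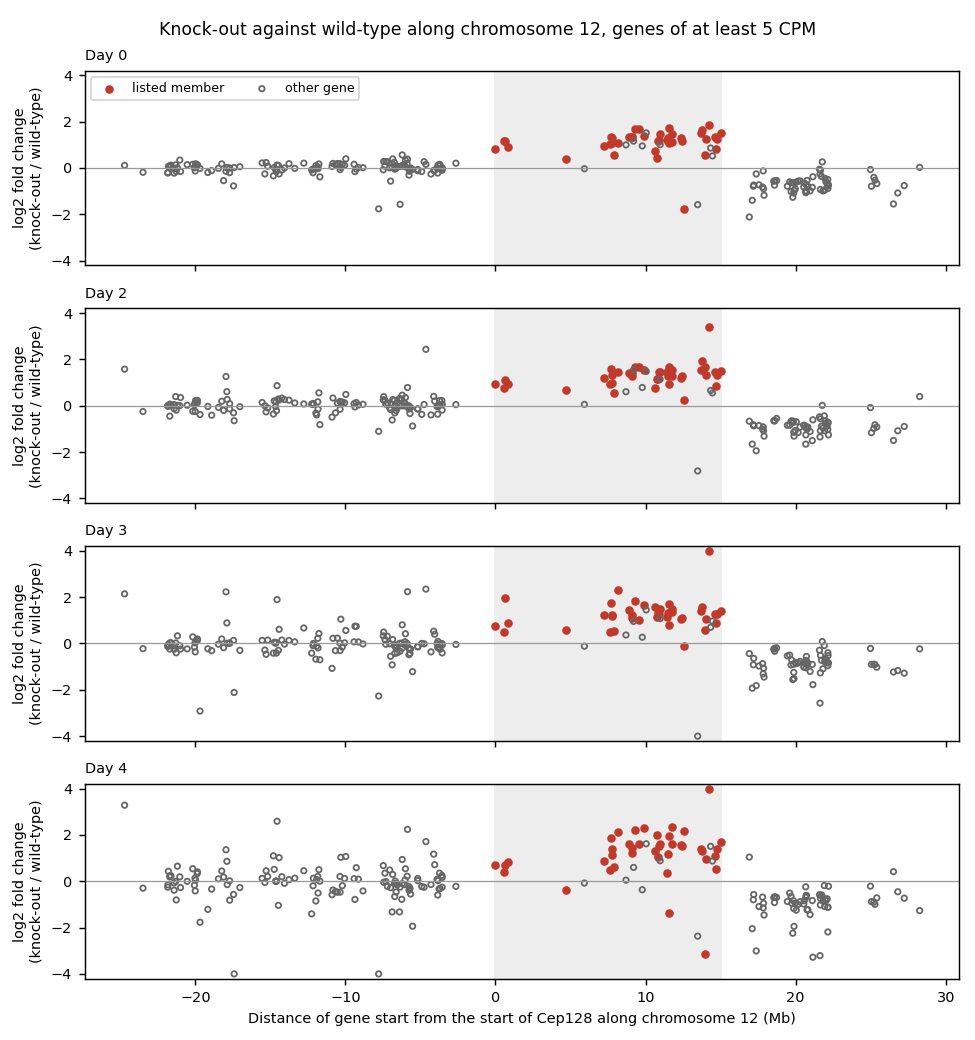
Log2 fold change of knock-out over wild-type cells for genes of chromosome 12 with a mean of at least 5 CPM, against distance from the start of Cep128 in megabases, with 1 panel per day and values beyond ±4 drawn at the edge. Filled red points are the members, open grey points are other genes, and the shaded band is the block. Inside the band most filled points lie near the members' medians of 1.17, 1.29, 1.21 and 1.38, points on the proximal side scatter around 0, and most points on the distal side lie below 0.

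The nearest measured genes outside the block did not share the members' gain, apart from Bcl11b on the distal side at day 4. On the proximal side the nearest, Adck1, a mitochondrial kinase-like protein at 88360554 to 88461724, had log2 fold changes of 0.20 ± 0.10, 0.05 ± 0.10, -0.04 ± 0.10 and -0.22 ± 0.10 in order of days, at a mean of 12.7 CPM. Next to it Snw1, a splicing co-regulator at 87449075 to 87472274, had 0.01 ± 0.05, 0.07 ± 0.05, -0.06 ± 0.05 and 0.16 ± 0.05. Cep128, a protein of the mother centriole and the first member, had 0.84 ± 0.07, 0.93 ± 0.07, 0.76 ± 0.07 and 0.70 ± 0.07. At the distal end the last member Vrk1, a chromatin kinase, had 1.49 ± 0.04, 1.49 ± 0.04, 1.40 ± 0.04 and 1.67 ± 0.04. Beyond it, the transcription factor Bcl11b (named Rit1 in the table) had -2.12 ± 0.27, -0.67 ± 0.18, -0.44 ± 0.17 and 1.04 ± 0.18 at a mean of 7.72 CPM, and Ccnk, a cyclin of transcription elongation at 108179579 to 108203359, had -0.79 ± 0.10, -0.82 ± 0.10, -0.92 ± 0.10 and -0.80 ± 0.10. Within the block the 3 members of at least 50 CPM nearest to Cep128, which are Gtf2a1, Ston2 and Sel1l, had a median of 1.16, 0.94, 0.90 and 0.69 at days 0, 2, 3 and 4. At day 3 these 3 ranged from 0.49 to 1.95. The 6 between 100 and 102 Mb, Psmc1, Nrde2, Ttc7b, Ccdc88c, Atxn3 and Cpsf2, had 1.36, 1.44, 1.37 and 1.56. The 5 between 96 and 100 Mb had 1.28, 1.43, 1.44 and 1.61. The 7 between 102 and 104 Mb had 1.2, 1.3, 1.3 and 1.61, and the 5 beyond 104 Mb had 1.35, 1.45, 1.28 and 1.38.

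Papola, the poly(A) polymerase, illustrates a nearly constant difference. It had 883, 906 and 905 CPM in knock-out libraries at day 0, against 377, 370 and 381 CPM in wild-type libraries. At day 4 it had 1140, 1160 and 1090 CPM in knock-out libraries, against 436, 443 and 424 CPM in wild-type libraries. All knock-out libraries were above all wild-type libraries at all 4 days, and the log2 fold change stayed between 1.26 ± 0.03 at day 0 and 1.38 ± 0.03 at day 4. The change of that difference between day 0 and day 4 was 0.12 (95% interval 0.02 to 0.22).

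Psmc1, an ATPase of the proteasome cap, had 684, 676 and 637 CPM in knock-out libraries at day 0, against 281, 253 and 246 CPM in wild-type libraries. Its day 4 values were 633, 663 and 628 CPM in knock-out libraries, against 241, 240 and 227 CPM in wild-type libraries. Its groups did not overlap at either day, and its difference moved by 0.09 on the log2 scale from day 0 to day 4 (95% interval -0.08 to 0.26). Dicer1 had 475, 525 and 528 CPM in knock-out libraries at day 0, against 171, 176 and 185 CPM in wild-type libraries. At day 4 its knock-out libraries had 570, 553 and 544 CPM, against 208, 216 and 218 CPM in wild-type libraries. Again no library of 1 genotype reached the other, and the difference moved by -0.14 (95% interval -0.285 to -0.005).

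A joint test of any change in the difference between genotypes over the 4 days called 26 of the 45 members (57.8%), beside 45.3% of all tested genes (edgeR quasi-likelihood test, adjusted p under 0.05). The other 19 were not called, which alone does not show a constant difference. The interval of the change from day 0 to day 4 was read for each, which limits the change between those days only. It lay within 1.5-fold in either direction for 15 of the 19, and within ±0.32 on the log2 scale for 8: Sel1l, Zc3h14, Psmc1, Cpsf2, Golga5, Btbd7, Dicer1 and Papola. Galc, Nrde2 and Vrk1, which the joint test called, also had this interval within ±0.32. The interval therefore cannot show that a difference was kept on the days between. These 8 have varied roles: Sel1l is the adaptor named above, Zc3h14 binds poly(A), Cpsf2 is a subunit of the cleavage and polyadenylation factor, Golga5 is a golgin of the Golgi rim, and Btbd7 acts in epithelial branching. The intervals of Flrt2, Fbln5, Eml5 and Clmn reached past 1.5-fold. Sized against the members' median, 22 tested members stayed within 1.5-fold of it at all 4 days, and 9 of the 22 were nonetheless called by the joint test.

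**Figure D2:**
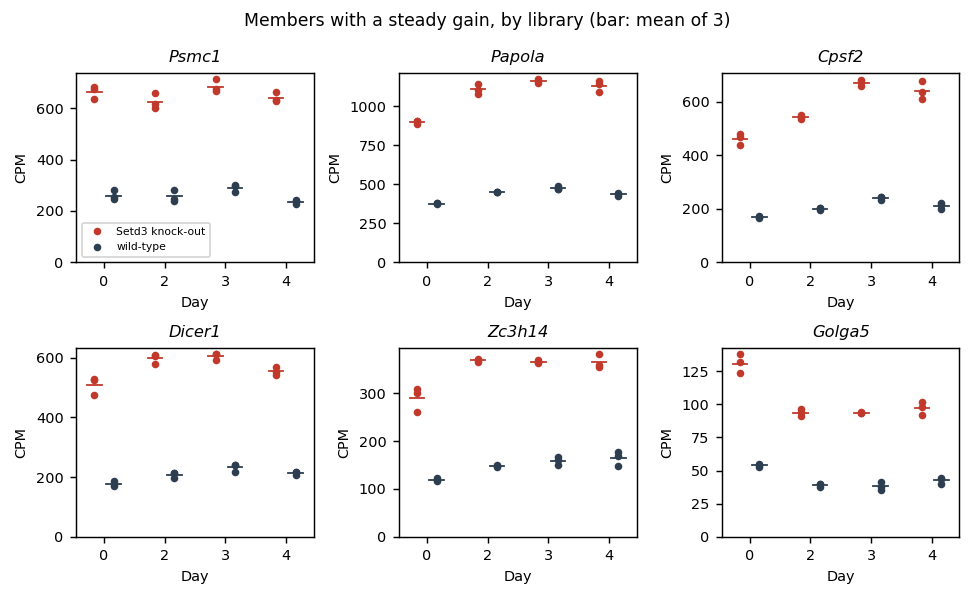
CPM in each library for Psmc1, Papola, Cpsf2, Dicer1, Zc3h14 and Golga5, by day, with knock-out libraries left of wild-type libraries at each day. In these 6 genes the knock-out points lie above the wild-type points at all 4 days, as in Papola at day 0 with 883 to 906 CPM in knock-out and 370 to 381 CPM in wild-type libraries.

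Of the 26 calls, 20 were kept under each of the 31 alternative analyses, and 6 were not. Ptpn21, a tyrosine phosphatase, lost its call in 18 of them (adjusted p 0.0501 to 0.316). Among the analyses that left out 1 library, it kept its call only without knock-out day 2 replicate 1, knock-out day 4 replicate 2, wild-type day 0 replicate 1, wild-type day 2 replicate 1 or 2, wild-type day 3 replicate 1 or 3, or wild-type day 4 replicate 3. Nrde2, a partner of the nuclear RNA exosome, lost it in 8 (0.051 to 0.0852), without knock-out day 2 replicate 1 or 2, knock-out day 3 replicate 3, wild-type day 2 replicate 1 or 3, wild-type day 3 replicate 1 or 2, or wild-type day 4 replicate 3. Gskip, a GSK3-binding protein, lost it in 7 (0.0533 to 0.0871), with no low-count filter and without knock-out day 2 replicate 1, any knock-out day 4 library, or wild-type day 4 replicate 1 or 2. Tc2n lost it in 5 (0.0551 to 0.0813), without knock-out day 2 replicate 3, knock-out day 3 replicate 2, wild-type day 2 replicate 1, or wild-type day 3 replicate 1 or 2. Glrx5, of mitochondrial iron-sulfur assembly, lost it without knock-out day 2 replicate 1 (0.0626) or wild-type day 4 replicate 1 (0.0541). Tcl1 lost it when day 0 was left out (0.119).

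Conversely, 8 of the 19 uncalled members were called in at least 1 alternative. Without 1 library these were Flrt2 (knock-out day 0 replicate 1, adjusted p = 0.0346, or replicate 3, 0.0202), Tdp1 (knock-out day 0 replicate 3, 0.00973), Btbd7 (the same library, 0.0305), Itpk1 (that library, 0.0453, or wild-type day 0 replicate 1, 0.027), Otub2 (knock-out day 0 replicate 1, 0.0273, or replicate 3, 0.00907), Dicer1 (knock-out day 0 replicate 1, 0.0277, or wild-type day 3 replicate 1, 0.03), Clmn (wild-type day 4 replicate 1, 0.0392) and Atg2b (knock-out day 0 replicate 1, 0.0288, wild-type day 3 replicate 1, 0.0181, or wild-type day 4 replicate 1, 0.045).

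**Figure D3:**
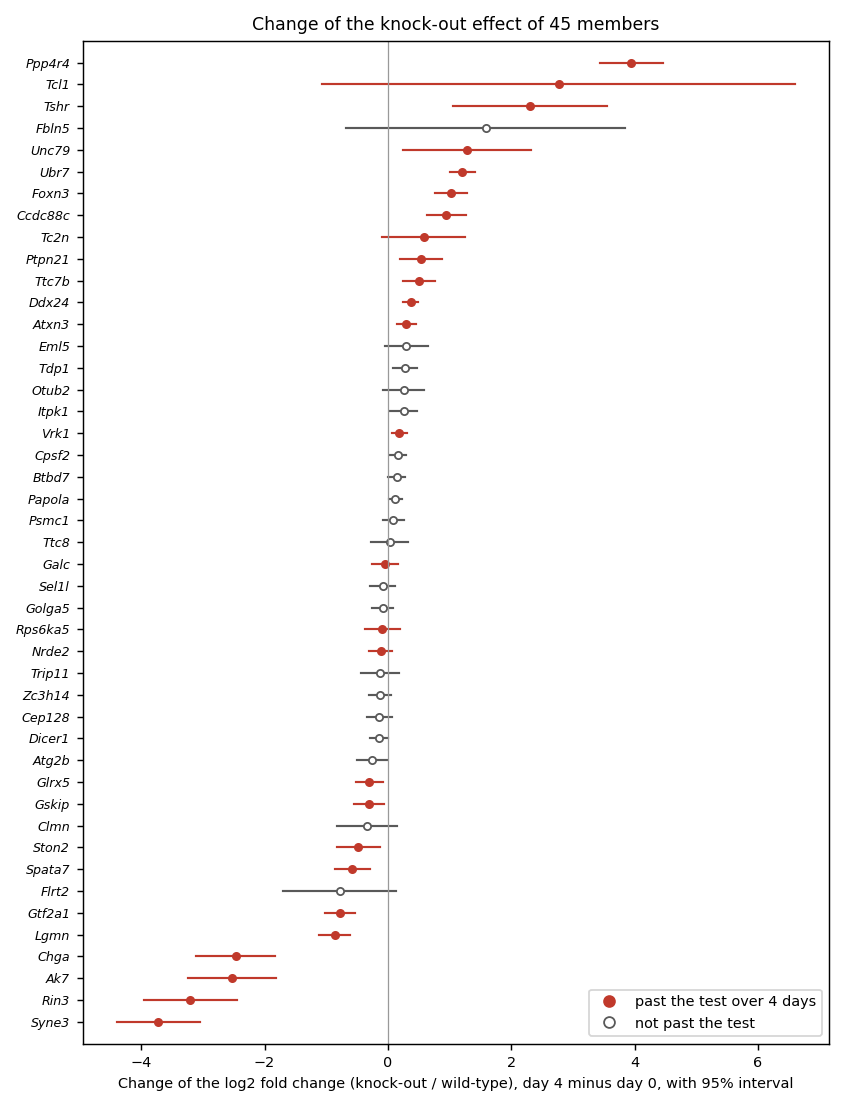
Change of the log2 fold change of knock-out over wild-type from day 0 to day 4 for the 45 tested members, with 95% intervals as bars. Filled red points mark the 26 members past the joint test, and the bars of Ppp4r4 at 3.95 and Syne3 at -3.72 lie farthest from 0 on either side among members past that test of day 4 against day 0.

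Most of the change came at day 4. Against day 0, the difference between genotypes had changed for 3 of 45 members by day 2 (6.67%, beside 7.34% of all tested genes), for 8 by day 3 (17.8%, beside 19.1%) and for 22 by day 4 (48.9%, beside 36.7%), of which 12 went up and 10 went down. From day 2 to day 3 it changed for 6 members (13.3%, beside 10.9%), and from day 3 to day 4 for 19 (42.2%, beside 23.8%), 11 up and 8 down. The count of 3 was 1 without wild-type day 2 replicate 1, 5 without wild-type day 3 replicate 1 and 6 with DESeq2. The count of 6 was 3 without wild-type day 3 replicate 2. These comparisons share libraries.

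By role, the joint test called 4 of 9 members of transcription and RNA handling, 4 of 8 of protein turnover, 4 of 7 of membrane traffic, 7 of 7 kinases, phosphatases and their partners, 2 of 5 of cilia, centrosomes and microtubules, 1 of 5 of adhesion and cytoskeleton, and 2 of 2 receptors and channels, each beside 45.3% of all tested genes. The role groups are small and were drawn up with earlier results known, so no group is set apart by these counts. Among genes of transcription and RNA handling, Foxn3 and Gtf2a1 departed in opposite directions. Foxn3, a forkhead repressor, had 76.7, 87.9 and 90.5 CPM in knock-out libraries at day 0, against 37, 43.8 and 39 CPM in wild-type libraries. At day 3 it had 208, 227 and 205 CPM in knock-out libraries, against 35.5, 46.2 and 48 CPM in wild-type libraries. The groups did not overlap at either day, and the difference widened by 1.21 ± 0.12 on the log2 scale (adjusted p = 3.96e-07, edgeR).

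Gtf2a1, a subunit of the general transcription factor TFIIA, had 114, 123 and 133 CPM in knock-out libraries at day 0, against 51.3, 54.6 and 59.1 CPM in wild-type libraries. Its day 4 values were 82, 84.3 and 89 CPM in knock-out libraries, against 76.5, 56.9 and 62.6 CPM in wild-type libraries. The groups were separate at both days but close at day 4, and the difference changed by -0.78 ± 0.12 on the log2 scale (adjusted p = 1.05e-05, edgeR). In this role group of 9 members, the joint test also called Nrde2 and the DEAD-box helicase Ddx24, and did not call Papola, Cpsf2, Dicer1, Zc3h14 or Tdp1, which repairs topoisomerase adducts on DNA. Tdp1 did pass the single comparison of day 4 with day 0, with a change of 0.28 ± 0.09 (adjusted p = 0.0223, edgeR). Ddx24 had a log2 fold change of 1.12 ± 0.04 at day 3 and 1.54 ± 0.04 at day 4.

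Among genes of protein turnover, Ubr7 and Lgmn departed and Psmc1 and Sel1l did not. Ubr7, a ubiquitin ligase of the UBR-box family, had 664, 692 and 662 CPM in knock-out libraries at day 3, against 246, 263 and 273 CPM in wild-type libraries. By day 4 the values were 689, 696 and 629 CPM in knock-out libraries, against 122, 137 and 141 CPM in wild-type libraries. Knock-out libraries thus stayed near their day 3 values while all 3 wild-type libraries were below theirs, and the difference widened by 0.97 ± 0.10 (adjusted p = 1.07e-07, edgeR).

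Lgmn, the lysosomal asparaginyl endopeptidase, went the other way. It had 71.7, 70.7 and 71.9 CPM in knock-out libraries at day 3, against 37.6, 29.9 and 30.2 CPM in wild-type libraries. At day 4 it had 95.7, 100 and 106 CPM in knock-out libraries, against 93.3, 77.9 and 67.6 CPM in wild-type libraries. The highest wild-type library at day 4 was close to the lowest knock-out library, and the difference changed by -0.79 ± 0.13 on the log2 scale (adjusted p = 4.39e-05, edgeR). The joint test also called the deubiquitinase Atxn3 and Galc, the lysosomal galactosylceramidase, and did not call Otub2 or Atg2b, which transfers lipid to growing autophagosomes. Otub2 did pass the single comparison of day 4 with day 3, with a change of 0.48 ± 0.16 (adjusted p = 0.0283, edgeR).

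**Figure D4:**
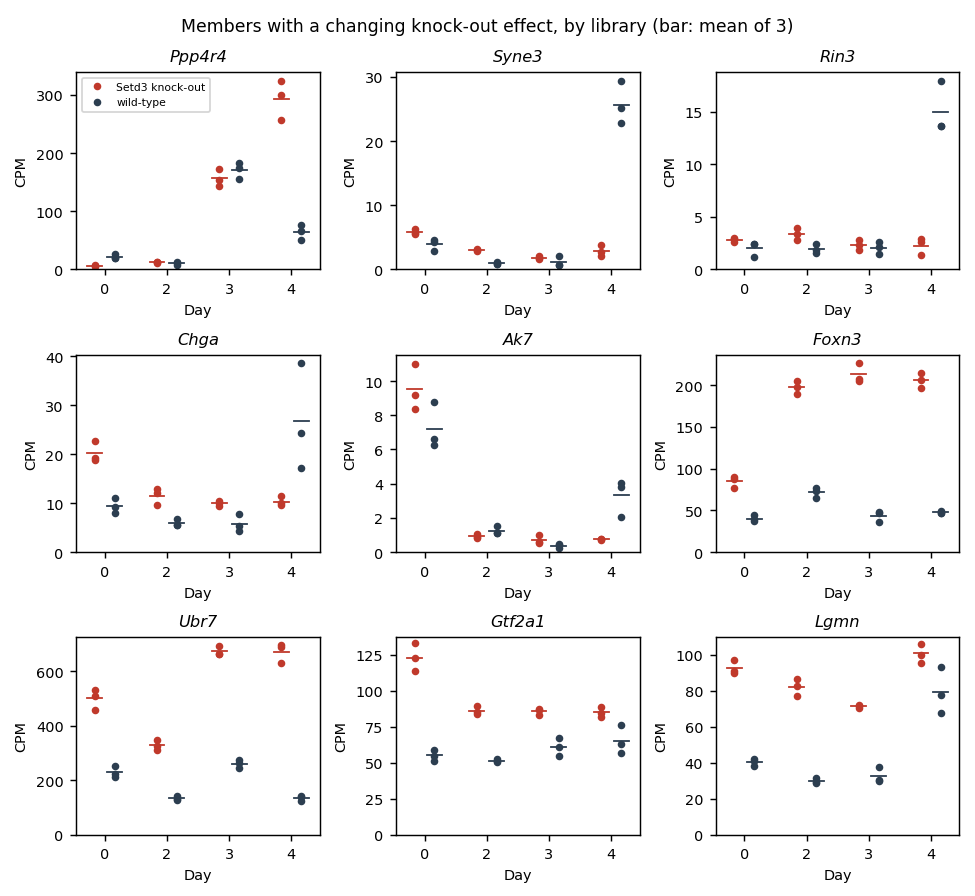
CPM in each library for Ppp4r4, Syne3, Rin3, Chga, Ak7, Foxn3, Ubr7, Gtf2a1 and Lgmn, by day, with knock-out libraries left of wild-type libraries at each day. In Syne3 at day 4 the knock-out libraries lie at 2.05 to 3.89 CPM and the wild-type libraries at 22.8 to 29.3 CPM, without overlap, while in Ubr7 the knock-out libraries lie above the wild-type ones at all 4 days.

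Among the kinases, phosphatases and their partners, the calls of Ptpn21, Gskip and Tcl1 have the limits given above. Ppp4r4, a regulatory subunit of protein phosphatase 4, changed most among them. At day 0 it had 5.6, 6.27 and 7.4 CPM in knock-out libraries, against 19.1, 26 and 20.2 CPM in wild-type libraries. At day 3 it had 154, 143 and 173 CPM in knock-out libraries, against 155, 175 and 183 CPM in wild-type libraries. By day 4 the values were 299, 256 and 323 CPM in knock-out libraries, against 50.8, 65.5 and 76.3 CPM in wild-type libraries. Knock-out libraries were thus lower at day 0, overlapped with wild-type at day 3 and were higher at day 4, and the change from day 0 to day 4 was 3.95 ± 0.24 (adjusted p = 9.46e-10, edgeR).

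Tcl1, a co-activator of the kinase AKT that is abundant in stem cells, was lost with differentiation in both genotypes. It had 196, 205 and 243 CPM in knock-out libraries at day 0, against 64.3, 53.3 and 58.8 CPM in wild-type libraries. At day 2 it had 8.19, 8.61 and 6.84 CPM in knock-out libraries, against 0.384, 0.843 and 1.04 CPM in wild-type libraries. The groups did not overlap at either day. Summed over libraries there were 123 counts in knock-out and 2 in wild-type cells at day 3, a ratio of 56.3 (95% interval 15.2 to 470, counting error only). At day 4 there were 9 counts in knock-out and 0 in wild-type cells. With wild-type set at a floor of 3 counts over the group, Tcl1 was 3.01-fold higher in knock-out. The counting error of the 9 is not included, so this is not a lower limit. The difference widened by 3.71 ± 0.84 on the log2 scale between day 0 and day 3 (adjusted p = 0.00405, edgeR).

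Rps6ka5, a nuclear kinase of histone H3, had a smaller difference at day 3 than on the days around it. It had 47.8, 52 and 50.8 CPM in knock-out libraries at day 3, against 27.8, 25.6 and 21.8 CPM in wild-type libraries. Its day 4 values were 56.1, 52.2 and 56.9 CPM in knock-out libraries, against 16.2, 18.1 and 20.7 CPM in wild-type libraries. The groups stayed apart at both days, with a change in the difference of -0.67 ± 0.14 from day 2 to day 3 and 0.58 ± 0.14 from day 3 to day 4 (adjusted p = 0.00167 and 0.0026, edgeR). Ccdc88c, which binds Dishevelled in Wnt signalling, had a log2 fold change of 1.66 ± 0.11 at day 3 and 2.31 ± 0.11 at day 4, a change of 0.66 ± 0.15 (adjusted p = 0.00356, edgeR).

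Of the 7 genes of membrane traffic, Ston2, Rin3, Ttc7b and Tc2n were called, Tc2n not in all alternatives, and the Golgi tether Trip11, Golga5 and the inositol phosphate kinase Itpk1 were not, though Itpk1 was called in 4 alternatives. Ston2, an endocytic adaptor, had 159, 174 and 150 CPM in knock-out libraries at day 3, against 35.9, 45 and 43.9 CPM in wild-type libraries. Its day 4 values were 111, 104 and 101 CPM in knock-out libraries, against 77.9, 63.8 and 55.2 CPM in wild-type libraries. The groups did not overlap but came closer, and the difference changed by -1.26 ± 0.17 (adjusted p = 1.29e-05, edgeR). It had widened by 0.85 ± 0.17 from day 2 to day 3 (adjusted p = 0.00173).

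Rin3, an exchange factor for the small GTPase Rab5, had 2.86, 1.38 and 2.58 CPM in knock-out libraries at day 4, against 17.9, 13.6 and 13.6 CPM in wild-type libraries. At day 3 it had 2.33, 1.89 and 2.81 CPM in knock-out libraries, against 2.59, 2.13 and 1.43 CPM in wild-type libraries. The genotypes overlapped at day 3 and were far apart at day 4, with wild-type higher, a change of -2.91 ± 0.37 (adjusted p = 2.78e-06, edgeR).

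Syne3, a nesprin of the nuclear envelope, changed in the same direction from day 3 to day 4. It had 1.82, 2.07 and 1.58 CPM in knock-out libraries at day 3, against 2.08, 0.746 and 0.76 CPM in wild-type libraries. At day 4 it had 2.72, 2.05 and 3.89 CPM in knock-out libraries, against 29.3, 25.1 and 22.8 CPM in wild-type libraries. The change was -3.75 ± 0.38 (adjusted p = 1.19e-07, edgeR), with overlap at day 3 and none at day 4. The other adhesion and cytoskeleton members, Flrt2, Fbln5, Clmn and Btbd7, were not called. Flrt2, an adhesion protein, and Fbln5, of elastic fibres, are also expressed by fibroblasts: at day 0 their knock-out libraries ran from 14.3 to 46.2 CPM and from 15.9 to 54.4 CPM, against 18.3 to 25.8 CPM and 20.1 to 31.6 CPM in wild-type libraries. The part of the feeder signal in these values was not tested.

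Chga, chromogranin A of secretory granules, had 9.53, 9.95 and 11.4 CPM in knock-out libraries at day 4, against 38.6, 24.4 and 17.1 CPM in wild-type libraries. At day 3 it had 10.4, 9.94 and 9.47 CPM in knock-out libraries, against 7.69, 5.22 and 4.38 CPM in wild-type libraries. The genotypes thus changed places without overlapping at either day, a change of -2.16 ± 0.32 (adjusted p = 4.03e-05, edgeR).

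Among genes of cilia, centrosomes and microtubules, Ak7, an adenylate kinase of motile cilia, and Spata7, of the photoreceptor cilium, were called. Ak7 had 0.771, 0.714 and 0.778 CPM in knock-out libraries at day 4, against 2.07, 4.05 and 3.82 CPM in wild-type libraries, with no overlap. At day 3 it had 0.974, 0.552 and 0.57 CPM in knock-out libraries, against 0.472, 0.213 and 0.402 CPM in wild-type libraries. The change was -3.05 ± 0.47 (adjusted p = 3.46e-05, edgeR), at levels near 1 CPM. Spata7 had a log2 fold change of 1.05 ± 0.10 at day 0, and by day 4 of 0.47 ± 0.10. Cep128, Eml5, a microtubule-associated protein, and Ttc8 were not called, and Ttc8, a BBSome subunit, was the least raised of these at 0.58 ± 0.11, 0.55 ± 0.10, 0.55 ± 0.10 and 0.61 ± 0.10 at days 0, 2, 3 and 4.

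Both receptor and channel members that passed the filter were called, at low levels. Tshr, the thyrotropin receptor, had 1.13, 0.857 and 0.876 CPM in knock-out libraries at day 4, against 0.148, 0.186 and 0.182 CPM in wild-type libraries. Unc79, of the NALCN sodium leak channel complex, had 8.35, 9.9 and 8.17 CPM in knock-out libraries at day 4, against 2.07, 1.26 and 2.14 CPM in wild-type libraries. Neither gene had overlapping groups at day 4. Tshr was not called at days 0, 2 and 3, with log2 fold changes of 0.13 ± 0.34, -0.42 ± 0.56 and 0.00 ± 0.41. Unc79 was already at 1.12 ± 0.21 at day 3. From day 3 to day 4 the differences of Tshr and Unc79 changed by 2.43 ± 0.65 and 1.15 ± 0.30 (adjusted p = 0.00725 and 0.00676, edgeR).

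The last step, from day 3 to day 4, was then followed within each genotype. In knock-out cells 6 of 45 members changed (13.3%, beside 11.6% of all tested genes), and in wild-type cells 25 changed (55.6%, beside 45.5%), 10 up and 15 down. In a fit of only the 2 groups compared, the knock-out count was 19 members, beside 3698 of all genes. The counts of 6 members and 1986 genes thus depend on the fit. For all genes the knock-out count of 1986 was 1062 without knock-out day 4 replicate 3, 1159 without knock-out day 3 replicate 2 and 1229 without knock-out day 3 replicate 1. At the earlier steps, 38 and 18 members changed in knock-out cells (84.4 and 40%, beside 60.1 and 29.1% of all tested genes, day 0 to 2 and day 2 to 3), and 36 and 27 in wild-type cells (80 and 60%, beside 63.8 and 42.4%).

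Values of this last step are given for 5 of the genes that departed at day 4. Syne3 had a step of 0.66 ± 0.27 on the log2 scale in knock-out cells (adjusted p = 0.116) and 4.41 ± 0.26 in wild-type cells (adjusted p = 3.46e-12, edgeR). The step of Rin3 was -0.04 ± 0.27 in knock-out and 2.87 ± 0.25 in wild-type cells, and that of Chga was 0.05 ± 0.23 in knock-out and 2.21 ± 0.23 in wild-type cells. Ubr7 had a step of 0.00 ± 0.07 in knock-out cells and fell in wild-type cells, with a step of -0.97 ± 0.07. Ppp4r4 rose in knock-out cells, with 0.90 ± 0.14, and fell in wild-type cells, with -1.41 ± 0.15. Over the same step the summed endoderm markers were lower in knock-out than in wild-type libraries at both days, as given above, and their part in these differences was not tested.

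**Figure D5:**
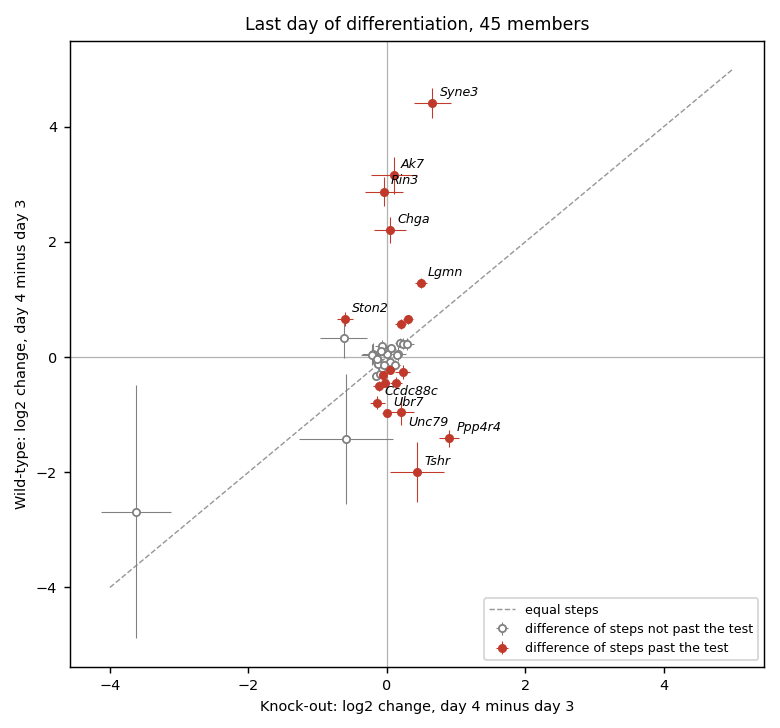
Change from day 3 to day 4 on the log2 scale for the 45 tested members, with the step in knock-out cells on the horizontal axis and the step in wild-type cells on the vertical axis. Bars are standard errors, filled red points mark the 19 members whose steps differed between genotypes, and the dashed line marks equal steps; Syne3 (0.66 in knock-out, 4.41 in wild-type), Ak7, Rin3 and Chga lie well above it while Ppp4r4 (0.90 in knock-out, -1.41 in wild-type) lies below it.

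The 4 members left out by the low-count filter were close to silent. The proton-sensing receptor Gpr65 had 1 count in all 24 libraries and Moap1, which binds BAX, had 0, though Moap1 lies within the annotated gene Gm28051 on the same strand. The potassium channel Kcnk10 had 15 counts in knock-out and 49 in wild-type cells at day 0, and 108 counts in all. The exchanger Slc24a4 had 37 counts in all, 3 in knock-out and 11 in wild-type cells at day 4. The counts of Zc3h14 and Eml5, of Atg2b and Gskip, and of Cpsf2 and Ttc7b with unlisted neighbours are uncertain, since these genes overlap on opposite strands and no source used here says whether counting used strand. Itpk1 overlaps the unlisted Gm28373 on the same strand, so its counts are uncertain too.

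Partners of 6 members that are encoded outside the block were read in 5 lists. The highest log2 fold change there at day 4 was 1.01. Calls in these lists stand beside 21.1, 32.0, 41.2 and 54.0% of all tested genes at days 0, 2, 3 and 4 (edgeR, adjusted p under 0.05). Of 31 tested proteasome genes other than Psmc1, 3 were higher and 2 lower in knock-out cells at day 0, 5 higher and 0 lower at day 2, 1 higher and 9 lower at day 3, and 5 higher and 4 lower at day 4. None was past 1.5-fold, and their median log2 fold change was 0.00, 0.05, -0.07 and 0.01 in order of days. The 5 called at day 0 were 2 without knock-out day 0 replicate 2, 3 without wild-type day 0 replicate 1 or 2, and 0 in a fit of only the groups compared. The 5 at day 2 were 1 without knock-out day 2 replicate 1 or wild-type day 2 replicate 3, 2 without knock-out day 2 replicate 3, wild-type day 2 replicate 1 or wild-type day 4 replicate 3, and 3 with no filter. The 10 at day 3 were 6 without wild-type day 3 replicate 1. Of 16 partners of Papola and Cpsf2 in cleavage and polyadenylation, 7 were higher and 4 lower at day 4, and the median was 0.09, 0.10, 0.09 and 0.10 in order of days. Of 12 microRNA pathway genes, partners of Dicer1, 6 were higher and 2 lower at day 4 (medians 0.10, 0.09, 0.05 and 0.15), a total of 8 that was 5 without knock-out day 4 replicate 1 or 3, or without wild-type day 4 replicate 1 or 2. Of 12 tested genes of the SEL1L-HRD1 system, none was higher and 6 were lower at day 4 (medians 0.09, -0.08, -0.19 and -0.25). Of 8 tested BBSome partners of Ttc8, none was higher, and 1 was lower at day 0, 5 at day 2, 7 at day 3 (median -0.50) and 7 at day 4 (median -0.59), with Bbs1 at -2.71 at day 3 and -1.98 at day 4.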

How the data were processed

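The authors deposited raw counts of reads for each gene in each library. The submitters' processing notes name the tools HISAT2 and Trimmomatic and the build GRCm38.p6; tool versions, the counter and its strand setting were not given in the sources at hand. Reads of overlapping genes or near-identical copies may therefore be shared out arbitrarily. Groups and replicate numbers came from the labels. Coordinates came from GENCODE M21 (GRCm38) and promoters from RefSeq.

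CPM used TMM-scaled library sizes; levels are not per length and are not compared between genes. A single edgeR 4.0.16 quasi-likelihood model (glmQLFit, robust, R 4.3.3) covered all 24 libraries in 8 groups, after edgeR's low-count filter (17144 genes, biological coefficient of variation 0.0906). There were 16 comparisons, each adjusted by Benjamini-Hochberg over all tested genes, with a threshold of 0.05. The change of the difference between genotypes over days was tested by interaction contrasts, singly and jointly. The fit was tested on simulated counts. A floor of 3 counts stands for a group with 0 counts and leaves out the counting error of the other group. The 95% interval of a ratio of counts covers counting error only.

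The members, role groups, markers and partner lists were chosen with earlier results of these data known. Every member could be named; other genes were named as the nearest measured ones to each edge, as protein-coding neighbours or as list members. Alternatives were DESeq2 (1.42.0) size factors and tests, scaling without chromosomes 8 and 12, no filter, a replicate block, only the groups compared, days 2 to 4 only and each library left out. Successive-day contrasts, and leaving out both replicate 1 libraries of day 0, which had the highest feeder sum of the knock-out libraries and the lowest of the wild-type ones, were added after the data were seen. Some genes in the interval are not reported here.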

Additional observations from a re-analysis of the deposited data

Results flagged for a closer look

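For 26 members the difference between genotypes was not the same at all 4 days, by a joint test of the day-by-genotype terms (edgeR quasi-likelihood, Benjamini-Hochberg adjusted over all tested genes). For genes whose wild-type level was the higher one at day 4, the adjusted p was 7.43e-10 for Syne3, 6.33e-08 for Rin3, 3.29e-06 for Chga and 6.44e-06 for Ak7. For genes higher in knock-out cells at day 4 by more than the members' median, it was 3.66e-09 for Ppp4r4, 2.37e-09 for Ubr7, 7.83e-08 for Foxn3, 1.01e-05 for Ddx24, 0.000255 for Ccdc88c, 0.000443 for Rps6ka5, 0.00393 for Ttc7b, 0.0049 for Unc79, 0.00626 for Tshr, 0.00277 for Vrk1, 0.00598 for Atxn3, 0.0487 for Ptpn21 and 0.000603 for Tcl1. For genes higher in knock-out cells at day 4 by less than that median, it was 6.32e-07 for Lgmn, 3.04e-05 for Gtf2a1, 3.51e-05 for Ston2, 0.00107 for Spata7, 0.00876 for Galc, 0.0207 for Glrx5, 0.0264 for Nrde2, 0.028 for Gskip and 0.0307 for Tc2n. The grouping by day 4 level is a description.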

How the results depend on the processing

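With each library left out in turn, the genes past the threshold for knock-out minus wild-type ran from 2649 to 3819 at day 0, 4157 to 5825 at day 2, 5676 to 7390 at day 3 and 8354 to 9538 at day 4. For the change of that difference they ran from 731 (without wild-type day 2 replicate 1) to 1645 between days 0 and 2, 2533 to 3611 between days 0 and 3, 5611 to 6394 between days 0 and 4, 1303 to 2142 between days 2 and 3 and 3393 to 4430 between days 3 and 4. For the joint test they ran from 7122 to 8219, with 23 to 30 members. Knock-out steps ran from 9607 to 10504, 3858 to 5335 and 1062 to 2333, and wild-type steps from 10335 to 11249, 6021 to 7629 and 6773 to 8125, in order of days. The median log2 fold change of the members ran from 1.146 to 1.234, 1.264 to 1.335, 1.201 to 1.249 and 1.357 to 1.396 at days 0, 2, 3 and 4. In fits of only the groups compared, 1587 genes were called between genotypes at day 0, 3698 in the knock-out step from day 3 to day 4, and the day 4 median was 1.32. That median was 1.386 with DESeq2's size factors and with its own test, 1.392 with scaling from genes outside chromosomes 8 and 12, and 1.325 with no filter. The day 3 median was 1.172 with no filter and 1.241 for members of at least 5 CPM. No pairing by replicate number was seen (correlations of libraries with the same number -0.256 to 0.178), which does not show that the samples were unpaired. The replicate block lost 0 of the 26 joint calls of members and gained 1, Atg2b (edgeR joint test, adjusted p = 0.0428). No result reversed its sign in these alternatives. Members near 1 CPM, such as Tshr and Ak7, rest on few counts, and 3 libraries a group limit what the joint test can call.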

Other observations

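The interval from Cep128 to Vrk1 holds 101 protein-coding genes in GENCODE M21, of which 52 were not listed as members and 22 of these passed the low-count filter. Over these 22 the median log2 fold change was 0.56, 0.71, 0.46 and 0.75 at days 0, 2, 3 and 4, below that of the members, and 15, 18, 15 and 16 were above 0. The 7 with a mean of at least 5 CPM included 5 that were above 0 at all 4 days. Ppp4r3a, another regulatory subunit of protein phosphatase 4, had log2 fold changes of knock-out over wild-type of 1.51, 1.48, 1.45 and 1.62 at days 0, 2, 3 and 4, each ± 0.04, above the members' median at each day. Efcab11 had 0.99 ± 0.13 at day 0 and 0.05 ± 0.12 at day 4, and its difference changed over the days (joint test, adjusted p = 0.000827, edgeR). Gsc, a mesendoderm transcription factor, was lower in knock-out cells at day 3, with -4.89 ± 0.40, and at day 4, with -2.37 ± 0.32 (edgeR, adjusted p = 5.02e-08 and 6.04e-06). At day 0 its value was -1.58 ± 0.64 and at day 2 it was -2.82 ± 1.08 (edgeR, adjusted p = 0.0908 and 0.0555, not past the threshold). The processed pseudogene Gm6863, inside the interval, had group means of 103 to 105 CPM in knock-out and 100 to 114 CPM in wild-type cells over the 4 days, with log2 fold changes between -0.12 and 0.06; no source used here says how reads shared with a near-identical copy were counted.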
